A study of Mus musculus with 7 samples.

Results

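The genes described here are 7 that make the programmed DNA double-strand breaks of meiosis or choose where they fall: Spo11, Mei1, Mei4, Rec114, Ankrd31, Prdm9 and Zcwpw1. They were taken as a fixed list of names rather than by a cutoff on their values, although earlier results of these data were known. Each name matched 1 gene. All 7 were among the 21928 genes matched in the count tables and among the 13630 that passed a filter on low expression (a TPM, the count scaled to transcript length and to the total of the library, of 1 or more in 3 or more of the 7 samples). On GRCm38 the 7 genes include Mei4 (chr9:81863670-82206007) and Rec114 (chr9:58652850-58743964) on the same chromosome. The others are Spo11 (chr2:172977700-172993576), Mei1 (chr15:82069996-82126814), Ankrd31 (chr13:96748272-96910039), Prdm9 (chr17:15543079-15564354) and Zcwpw1 (chr5:137787798-137822621), with Prdm9 and Rec114 on the minus strand.

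RNA was measured by bulk RNA-seq in whole testes of mouse pups, 4 wild type and 3 Meioc-null, 1 library per pup from 1.5 testes. MEIOC is a germ cell protein that acts with RNA-binding partners at the start of meiosis, and the question addressed by the comparison is which transcripts depend on it when spermatogenic cells enter meiosis. All pups were of the C57BL/6N strain and all were synchronized in the same way, with WIN 18,446, which blocks the synthesis of retinoic acid, given daily from postnatal day 2 to 8 at 0.1 mg per gram body weight, followed by retinoic acid at 0.0125 mg per gram on day 9. Testes were collected 6.75 days after the retinoic acid injection, when they are enriched for preleptotene spermatocytes, the cells of premeiotic S phase. The null pups carried the germline allele Meioc tm1.1Dpc, and the enriched tissue still held the somatic cells of the testis. In such tissue, fewer cells of a type and less RNA per cell cannot be told apart.

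SPO11 is the enzyme that cuts DNA in meiosis, together with a partner subunit, TOPOVIBL. It acts only with accessory proteins on the chromosome axis, among them MEI1, MEI4, REC114 and ANKRD31, which are needed for breaks to form in normal number or place. In mice the sites of most breaks are set by PRDM9, which binds DNA through a zinc finger array and methylates histone H3 on lysines 4 and 36, and ZCWPW1 reads this double mark and promotes repair of the breaks.

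Sequences are shown for 3 places in these genes, and no value below tests a role of the promoter windows. The Spo11 exon distinguishes transcripts whose reads were divided by kallisto. The windows at the upstream start of Prdm9 and at the start of Rec114 were the only ones, among 8 RefSeq promoters (GRCm38.p6) found for 6 of the 7 genes (all but Spo11), with a match to any of 3 motifs searched on both strands. These motifs were the STRA8 motif CNCCTCAG, the E2F core GCGGGAA and the MGA/MAX E-box CACGTG. RefSeq promoters covered 250 bases before to 50 after a start, there were 2 each for Prdm9 and Zcwpw1, and only the bases before the start are shown. Capitals mark motif matches, and the exon has none.
Spo11, exon 2 of transcript Spo11-201, chr2:172981979-172982092, plus strand: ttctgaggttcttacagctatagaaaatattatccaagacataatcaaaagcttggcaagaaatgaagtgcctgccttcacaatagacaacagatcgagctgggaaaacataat
Prdm9, upstream start, chr17:15564355-15564604, minus strand: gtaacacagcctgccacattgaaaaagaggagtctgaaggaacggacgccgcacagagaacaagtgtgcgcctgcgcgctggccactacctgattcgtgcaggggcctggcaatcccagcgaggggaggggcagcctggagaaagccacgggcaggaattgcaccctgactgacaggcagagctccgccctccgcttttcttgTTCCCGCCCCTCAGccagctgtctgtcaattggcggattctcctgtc
Rec114, chr9:58741560-58741809, minus strand: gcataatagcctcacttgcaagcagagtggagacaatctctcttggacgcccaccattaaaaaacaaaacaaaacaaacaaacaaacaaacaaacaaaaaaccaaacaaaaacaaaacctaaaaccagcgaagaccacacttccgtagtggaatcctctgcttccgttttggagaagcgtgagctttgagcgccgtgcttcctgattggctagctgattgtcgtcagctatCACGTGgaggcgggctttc

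The 114 bases of the Spo11 exon are coding and are absent from Spo11-202 and Spo11-203 in GENCODE vM21, the annotation used here. In the Prdm9 window the capitals hold 2 overlapping matches, an E2F core read on the minus strand of the window at position -47 from the start and a STRA8 motif at -41. A further STRA8 motif lay at +15, outside the bases shown. This start lies near that of transcript Prdm9-205, whose first exon is chr17:15564236-15564340, whereas Prdm9-206 starts at a downstream site whose promoter held none of the motifs. The Rec114 window held the E-box at -19, and an E2F core lay at +27, outside the bases shown. For Mei1 the only window, chr15:82082226-82082525, lies at the start of transcript Mei1-203, at chr15:82082476. The start of Mei1-201, at chr15:82069997, was not searched, so the lack of a match does not cover it. Likewise the only Ankrd31 window, chr13:96748043-96748342, does not contain the start of Ankrd31-201, at chr13:96748532. Of 32851 RefSeq promoters of the same length, 7.94% held the STRA8 motif, 4.60% the E2F core and 7.15% the E-box. The 8 promoters, of 6 of the genes, had a median of 16.5 CpG dinucleotides and 56.7% GC, against 7 and 52.7% over all promoters. These matches are letters in a window, and no factor's binding was measured here.

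Libraries held 12537852 to 20552702 estimated counts, so that 3 counts, the least read here as detection, equalled 0.146 to 0.240 CPM (counts scaled to the library total) before TMM factors were applied. All other CPM values include the TMM factor of their library. Intervals and floors cover counting error only. Meioc itself, summed over its transcripts, ranged over 466 to 718 CPM in the wild-type libraries and 299 to 412 CPM in the null ones, with a log2 fold change of 0.76 ± 0.16 (SE) and an adjusted p of 0.0207 (edgeR). Summed counts do not tell deleted from remaining exons, so this value separates the groups without showing the loss of the protein. Germ cell and somatic markers were both detected, and the spermatid genes Prm1 and Prm2 were at 0 in all 7 libraries. Of 8 markers of pachytene and later germ cells 2 passed the filter, and neither overlapped between groups, with Hspa2 at 0.53 (adjusted p 0.0335, edgeR, called higher in wild type) and Piwil1 at -0.70 (adjusted p 0.106) in log2 fold change of wild type over null.

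Unless another fit is named, fold changes below are of wild type over null, on the log2 scale, from edgeR's quasi-likelihood test. It took rounded counts, with library sizes and TMM factors in the model, and Benjamini-Hochberg adjustment over all 13630 genes. A gene is called at an adjusted p under 0.05. Of the 7 genes, 5 were called higher in wild type, namely Mei1, Mei4, Ankrd31, Prdm9 and Zcwpw1, against 7.77% of all genes tested. Called lower were 0 of the 7, against 3.33% of all genes. The count lower was also 0 at an unadjusted p under 0.05 and by DESeq2. The same 5 genes were the ones whose 2 groups did not overlap in CPM, with wild type above, which held for 15.4% of all genes. The median log2 fold change was 0.82 over the 7 genes and -0.0065 over all genes tested.

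**Figure D1:**
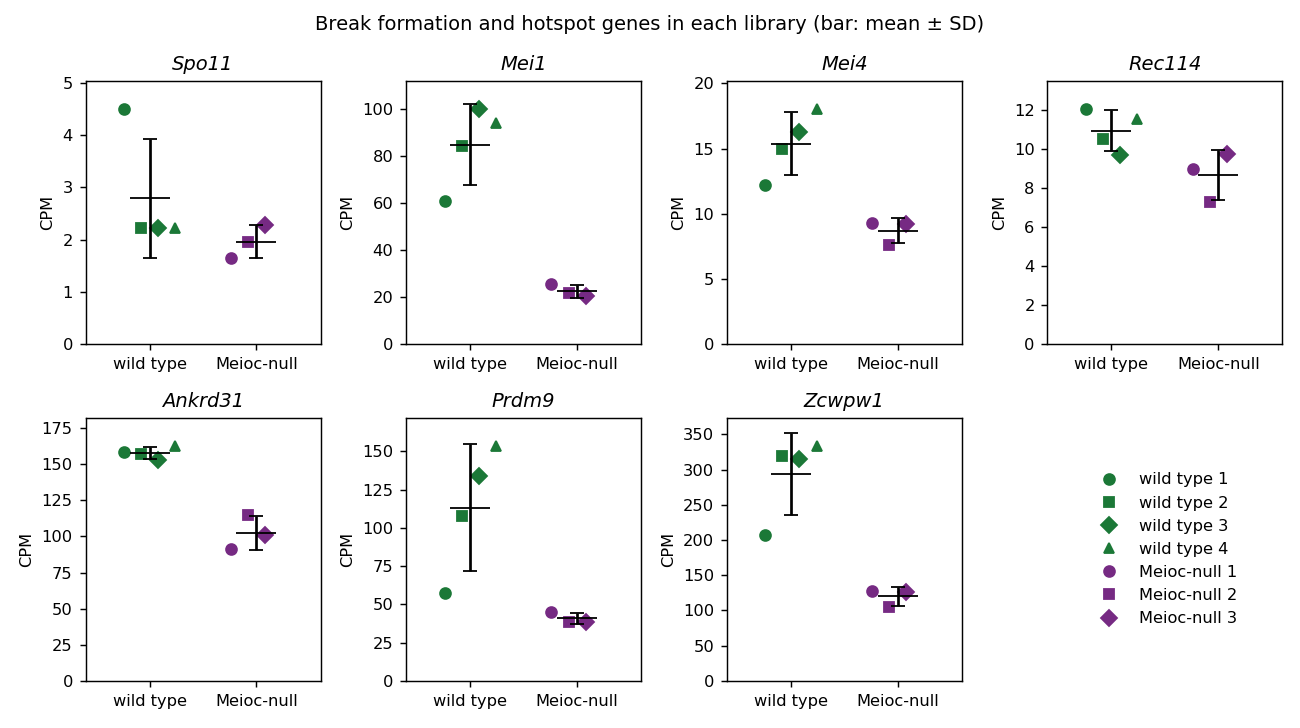
CPM of each gene (vertical axis from 0, one panel per gene) in the 4 wild-type and 3 Meioc-null libraries, with the mean ± SD of each group; each symbol is 1 library. For Mei1, Mei4, Ankrd31, Prdm9 and Zcwpw1 all wild-type points lie above all null points, whereas for Spo11 and Rec114 the groups overlap.

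Other measurements moved with the genotypes and stand beside these calls. Of 7 germ cell markers, 2 were called higher in wild type, Dazl and Mael. Dnd1 had a log2 fold change of -0.76 with no overlap of the groups (adjusted p 0.0571, edgeR) and Tdrd1 one of -0.24, and 1 of the 7 was called lower by DESeq2. The 7 markers summed to 1424 to 1596 TPM in wild type and 1303 to 1389 TPM in the null. Among 5 tested markers of undifferentiated spermatogonia, Zbtb16 was called lower in wild type and 4 were not called. At an unadjusted p under 0.05 in edgeR 3 were lower, whereas Gfra1 was at -0.14 and Id4 at 0.15, with overlapping groups. The list summed to 33.0 to 45.5 TPM against 52.8 to 94.2 TPM, of which Zbtb16 alone had means of 15.4 and 35.5 TPM. The 6 Sertoli cell markers summed to 631 to 727 TPM in wild type and 701 to 832 TPM in the null, so these sums overlapped. In edgeR 1 of them, Gata4, was called lower in wild type and 5 were not called. Of the 6, 3 had a positive log2 fold change, and the median was -0.012. Of 5 markers of differentiating spermatogonia, Kit was called higher and 4 were not called, with Ccnd2 lowest at -0.17. Their sums overlapped, at 137 to 189 TPM in wild type and 139 to 159 TPM in the null. The markers of peritubular myoid cells summed to 334.5 to 385 TPM in wild type and 400.1 to 436 TPM in the null. Those of endothelial cells summed to 23.7 to 28.6 against 29.4 to 36.4 TPM, and those of macrophages to 19.0 to 22.6 against 25.01 to 29.7 TPM. In log2(TPM + 1) the median difference of all genes tested was -0.23. On the CPM scale edgeR called 0 of the 4 markers of each of these cell types. Their median log2 fold changes were 0.096, 0.041 and 0.0011 in turn. At an unadjusted p under 0.05 in edgeR, 1 endothelial and 1 macrophage marker were lower in wild type. The sums of the Leydig cell markers overlapped between groups. The part of cell composition in the results was not tested. When libraries were instead scaled to the sum of the germ cell genes Ddx4 and Dazl, the median of all genes shifted to -0.53. That sum is mostly Dazl, at a wild-type mean of 1101 CPM against 216 CPM for Ddx4, and Dazl had a log2 fold change of 0.58 itself, whereas the median of the 7 germ cell markers was 0.20. On that scale Mei1, Prdm9 and Zcwpw1 were called higher, which are 3 of the 7 against 1.91% of all genes. All 7 lay above that median, as they did before the change of scale, with a lowest value of 0.33 against a median of -0.0065. Changing library sizes shifts all genes nearly alike, so this place above the median is not a further result.

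Spo11 was the least abundant of the 7 genes. It had 57, 32, 33 and 44 counts in wild-type libraries 1 to 4 and 31, 27 and 42 in null libraries 1 to 3. In CPM these are 4.49, 2.23, 2.22 and 2.21 against 1.65, 1.95 and 2.28. Wild-type library 1 stood above all others, and the remaining 3 fell within the null range. The exact 95% Poisson interval of wild-type library 1 was 3.40 to 5.82 CPM and that of library 4 was 1.61 to 2.97 CPM. The log2 fold change was 0.49 ± 0.31 (SE), with an adjusted p of 0.312 in edgeR, and without wild-type library 1 it was 0.18, with an adjusted p of 0.622. Spo11 was not called in either fit, which does not show that its level was the same in both genotypes.

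The accessory genes of the break machinery differed among themselves. Mei1, which is needed for breaks to form, measured 60.8, 84.5, 100.0 and 94.2 CPM in the 4 wild-type libraries and 25.5, 21.7 and 20.3 CPM in the 3 null libraries. The lowest wild-type library exceeded every null library, and the means were 84.9 ± 17.3 (SD, n = 4) and 22.5 ± 2.68 CPM (SD, n = 3). This 3.77-fold difference was the largest of the 7, with a log2 fold change of 1.92 ± 0.17 (SE) and an adjusted p of 0.000983 in edgeR. The call held when any 1 library was left out.

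Mei4, whose product binds REC114, measured 12.2, 14.98, 16.3 and 18.0 CPM in wild-type libraries 1 to 4, and 9.32, 7.58 and 9.22 CPM in null libraries 1 to 3. The groups were apart, although the gap between wild-type library 1 and the null was small. The log2 fold change was 0.82 ± 0.16 (SE), with an adjusted p of 0.0175 in edgeR. The call was lost without null library 2, null library 3, wild-type library 2 or wild-type library 3, with adjusted p of 0.0556, 0.0637, 0.0507 and 0.0562, and log2 fold changes that stayed between 0.72 and 0.91 over all libraries left out. Scaled to Ddx4 and Dazl it was 0.30, with an adjusted p of 0.0886.

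Rec114, the partner of MEI4, measured 12.1, 10.5, 9.70 and 11.6 CPM in the wild-type libraries, against 8.997, 7.30 and 9.76 CPM in the null ones. Wild-type library 3 fell below null library 3, so the groups overlapped. The log2 fold change of 0.33 ± 0.15 (SE) had an unadjusted p of 0.0482 and an adjusted p of 0.161 in edgeR. With Ddx4 and Dazl as the scale its sign turned, to -0.18.

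Ankrd31, which binds REC114 and bears on where breaks form, was close to constant within wild type, at 159, 157, 153 and 163 CPM, and measured 91.1, 115 and 101 CPM in the null. The SD in wild type was 4.046 CPM on a mean of 158, the smallest relative spread of the 7 genes in that group. The log2 fold change was 0.63 ± 0.089 (SE), with an adjusted p of 0.00774 in edgeR, and the call held when any 1 library was left out. On the TPM scale, where limma was run on log2(TPM + 1), the difference was 0.36 with an adjusted p of 0.059, and Ankrd31 was not called. There 4 of the 7 genes were called higher, Mei1, Mei4, Prdm9 and Zcwpw1, against 3.23% of all genes. Scaled to Ddx4 and Dazl, the Ankrd31 difference was 0.096, with an adjusted p of 0.508.

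Both hotspot genes were called. Prdm9 measured 57.4, 108, 134 and 154 CPM in the wild-type libraries, against 45.2, 38.7 and 38.8 CPM in the null ones. Wild-type libraries ranged widely while null libraries lay close together, with an SD of 41.7 CPM on a mean of 113 (n = 4) against an SD of 3.73 on a mean of 40.9 (n = 3). The log2 fold change was 1.47 ± 0.28 (SE), a 2.77-fold difference, with an adjusted p of 0.0170 in edgeR. It was not called without null library 2, null library 3 or wild-type library 3, with adjusted p of 0.0591, 0.0709 and 0.0514 and log2 fold changes of 1.43, 1.43 and 1.38.

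Zcwpw1 measured 207, 319, 316 and 334 CPM in the wild-type libraries, against 128, 105 and 127 CPM in the null ones. The group means were 294 ± 58.2 (SD, n = 4) and 120 ± 12.9 CPM (SD, n = 3), with the lowest wild-type value well above the null. The log2 fold change was 1.29 ± 0.16 (SE), with an adjusted p of 0.00457 in edgeR, and the call held when any 1 library was left out.

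The lowest wild-type values of Prdm9, Zcwpw1, Mei1 and Mei4 all came from wild-type library 1, which also had the lowest depth. Relative to the mean of the other wild-type libraries, on log2 CPM, it was lower by 1.19 for Prdm9, a difference below which only 0.785% of tested genes lay. Zcwpw1 was lower by 0.64, Mei1 by 0.61 and Mei4 by 0.42. Ankrd31 differed by 0.012 there, and Rec114 and Spo11 were higher by 0.19 and 1.00. Without this library the log2 fold changes of Prdm9 and Zcwpw1 were 1.69 and 1.43. Over all genes, log2 CPM of this library correlated with that of null library 1 at 0.978, as with wild-type libraries 2 and 3 (0.978 each); these are descriptions across genes.

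**Figure D2:**
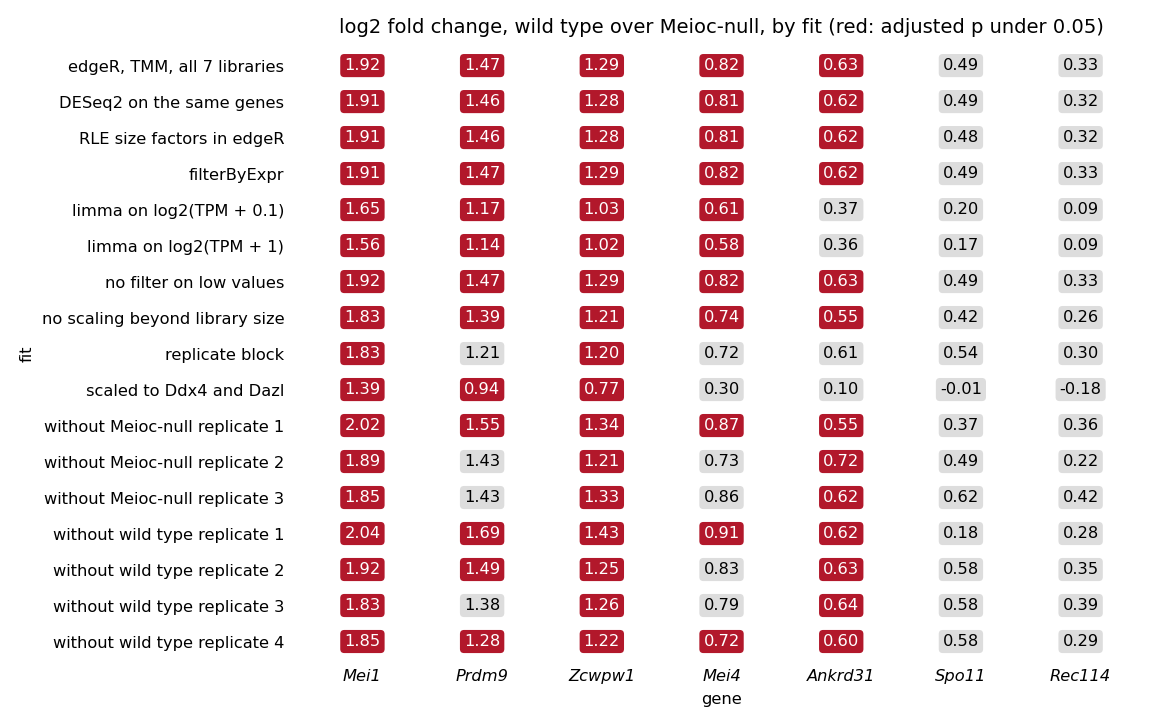
log2 fold change of wild type over Meioc-null (number in each box) for the 7 genes (horizontal axis) under each fit (vertical axis); red boxes have an adjusted p under 0.05. Mei1 and Zcwpw1 are red in every row, Spo11 and Rec114 in none, and Mei4, Prdm9 and Ankrd31 lose the call in some rows.

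Levels between genes were compared per length, in TPM. In wild type the order was Zcwpw1 at 217 TPM, Ankrd31 at 65.2, Prdm9 at 57.1, Rec114 at 27.7, Mei1 at 27.5, Mei4 at 18.8 and Spo11 at 3.86 TPM. Zcwpw1, the reader, stood 3.33 times above Ankrd31 with no overlap of libraries. The ranges of neighbors overlapped from Ankrd31 to Prdm9, Prdm9 to Rec114 and Rec114 to Mei1, and not below that. In the null the order was Zcwpw1 at 105 TPM, Ankrd31 at 50.9, Rec114 at 25.7, Prdm9 at 23.96, Mei4 at 12.3, Mei1 at 8.63 and Spo11 at 3.15 TPM. There, only Rec114 and Prdm9 overlapped among neighbors. Mei1 was thus above Mei4 in wild type and below it in the null, without overlap in either group. Mei1 was 62.2% of the way up the ranking of tested genes by mean TPM in wild type and 30.5% in the null.

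**Figure D3:**
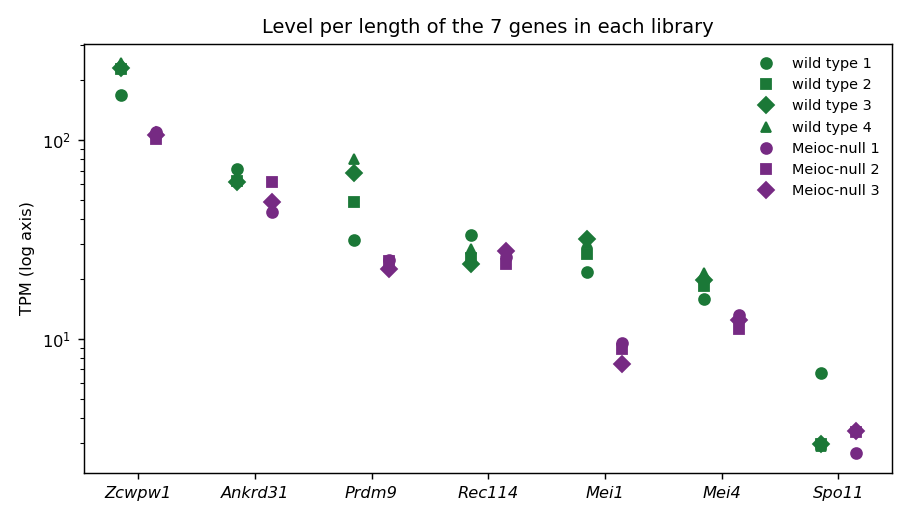
TPM (log axis) of each gene in each library, ordered by the wild-type mean; each symbol is 1 library. Zcwpw1 is highest and Spo11 lowest in both groups, and Mei1 lies above Mei4 in wild type and below it in the null.

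The ratio of pairs of genes was compared in TPM on the log2 scale for 5 fixed pairs. The test was an exact permutation test, two-sided, with p taken as double the smaller one-sided p over the 35 ways to divide 4 libraries from 3, so that it cannot fall below 0.0571. Prdm9 to Zcwpw1, writer to reader, was -1.995 ± 0.38 in wild type and -2.13 ± 0.097 in the null (SD, n = 4 and 3; exact permutation p = 0.571, adjusted over 5 pairs 0.714). Mei4 to Rec114 was -0.55 ± 0.36 against -1.07 ± 0.10 (exact permutation p = 0.114, adjusted 0.571). Ankrd31 to Rec114 was 1.24 ± 0.11 against 0.97 ± 0.33 (exact permutation p = 0.229, adjusted 0.571). The ratios Spo11 to Gm960 and Spo11 to Rec114 differed by -0.48 and 0.10 between groups (exact permutation p = 0.40 and 0.914). In all 5 pairs the libraries of the groups overlapped. No ratio could have passed 0.05 by this test, and equal change of both genes of a pair is not shown.

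Transcripts of 5 genes could be separated by annotation, as kallisto divides the reads. In Mei1, 3 transcripts were detected in every library, and Mei1-201, with 31 exons, held 48.4 ± 2.73% of the counts in wild type and 45.6 ± 6.56% in the null. Mei1-203 begins at chr15:82082476, after the first 7 exons of Mei1-201, and its mean was 13.5 TPM in wild type and 4.12 TPM in the null. Both were lower in the null in every library, at 8.58 to 14.5 TPM against 2.57 to 4.19 TPM for Mei1-201 and 10.7 to 15.6 TPM against 3.72 to 4.82 TPM for Mei1-203. Prdm9-206 held 85.0 ± 2.61% of the Prdm9 counts in wild type and 87.5 ± 2.44% in the null. Its last exon, of 2282 bases and partly coding, is absent from Prdm9-205, and the zinc fingers of PRDM9 are known to be encoded by the last coding exon. Prdm9-205 measured 10.6 to 32.0 TPM in wild type and 6.78 to 7.97 TPM in the null, and Prdm9-206 measured 20.96 to 48.1 TPM against 14.4 to 18.2 TPM.

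The other divided genes gave less precise shares. Ankrd31-201 held 50.2 ± 0.55% of the counts in wild type, and between 46.9% and 62.1% in the null. Mei4-202 held 59.5 ± 6.71% against 52.1 ± 8.91%. Mei4-203 was under the floor of 3 counts in all 7 libraries. Spo11-201, which contains the printed exon, took between 26.9% and 91.7% of the counts in wild type and 0% to 91.8% in the null. The null library at 0% had 31 Spo11 counts, and the transcripts share most of their sequence, so that few of these reads could tell them apart. The exact permutation p for a difference in share between groups, two-sided, ran from 0.286 to 0.80 over the 5 genes (adjusted 0.714 to 0.80), and this test, doubled in the same way as for the ratios, cannot reach 0.05. Of the 15 transcripts of the 7 genes, 13 had the same length in the files and in GENCODE vM21, the exceptions being Mei1-201 and Prdm9-206. Of the 31-base words of Prdm9 transcripts, 2.62% also occur in other genes, so that some of its reads could have been divided with them. For Mei4 it was 0.753%, and for the other 5 genes 0.

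**Figure D4:**
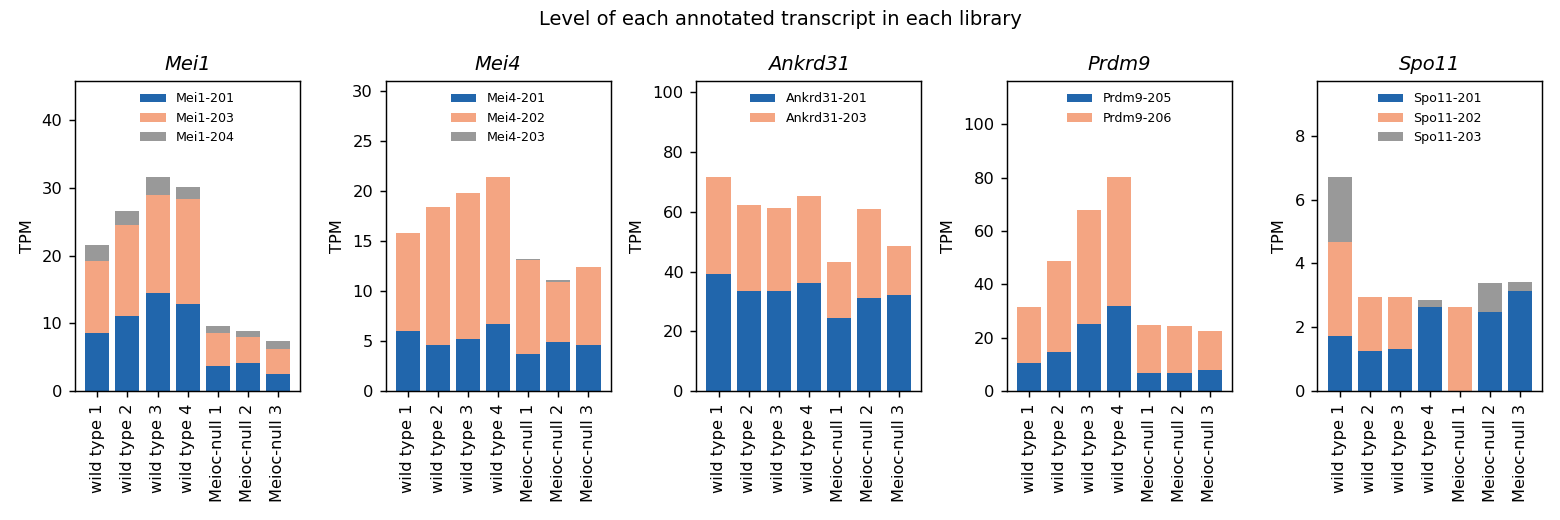
TPM of each annotated transcript (stacked colors) of 5 genes in each library, with vertical axes from 0. For Mei1 and Prdm9 every stacked part is lower in the 3 null libraries than in the wild-type libraries, and the parts of Spo11 vary from library to library.

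Genes that work beside the 7 were taken from fixed lists. Of 4 other break formation genes all 4 were called higher in wild type, with log2 fold changes (± SE) of 0.91 ± 0.20 for Gm960, which encodes TOPOVIBL, 1.50 ± 0.26 for Ccdc36, which encodes the axis protein IHO1, 1.22 ± 0.21 for Hormad2 and 1.73 ± 0.25 for Hormad1 (adjusted p, edgeR, 0.0227, 0.0144, 0.0134 and 0.00774). The HORMAD proteins lie on unsynapsed chromosome axes. Their count fell to 1 without null library 2 or null library 3, and was 3 or 4 without each of the others. Gm960, the partner subunit of Spo11, measured 13.1 ± 2.21 CPM (SD, n = 4) in wild type, against 7.01 ± 1.57 CPM (SD, n = 3) in the null.

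Among 5 PRDM9 partners and hotspot chromatin genes, 1 was called. Hells, which encodes a chromatin remodeler that acts with PRDM9 to open hotspots, had a log2 fold change of 1.07 ± 0.19 (SE) and an adjusted p of 0.0158 in edgeR; it was not called without null library 2 or without null library 3. Ehmt2, an H3K9 methyltransferase, had the lowest value, -0.36 ± 0.12, with an unadjusted p of 0.0117 and an adjusted p of 0.0729 in edgeR. Its groups did not overlap in CPM, with wild type below the null. DESeq2 called 1 gene of this list higher in wild type and 1 lower. The list median was -0.0058, against 1.38 for the pair Prdm9 and Zcwpw1. Zcwpw2, a relative of Zcwpw1, was not matched in the files. At the shares of all genes called, 7.77% higher and 3.33% lower, few calls would fall in lists this short. Of 8 tested genes of the PRDM family other than Prdm9, edgeR called 0, with 3 at an unadjusted p under 0.05, all lower in wild type, and DESeq2 called 1 lower. The largest value in that list was 0.21 for Mecom and the lowest -0.48 for Prdm10. Of 9 tested methyltransferases of H3K4 and H3K36, the marks that PRDM9 makes, edgeR called 0, with 1 at an unadjusted p under 0.05, and DESeq2 called 1. Values there ran from -0.64 for Kmt2d to 0.30 for Nsd2.

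Downstream of the breaks, 8 of 12 genes of end processing and damage signaling and 8 of 11 of strand invasion were called higher, against 7.77% of all genes tested. H2afx, which encodes the histone that is phosphorylated around breaks, had the highest value of the first list, 2.66 ± 0.50 (SE), and Chek2, a checkpoint kinase, the lowest, -0.58 ± 0.19 (adjusted p, edgeR, 0.0167 and 0.0805). In strand invasion Spata22, which binds single-stranded DNA with MEIOB, was highest at 3.07 ± 0.25, and Sfr1 lowest at 0.12 ± 0.097 (adjusted p, edgeR, 0.000729 and 0.421). The medians were 0.58 and 0.92. Wild-type library 1 was the lowest of its group for H2afx, at 276 CPM against 850, 1304 and 1225 in the other wild-type libraries and 217, 113 and 104 in the null. In that library Hormad1 was at 132.5 CPM against 240 to 290 in the others, and Hells at 366 CPM against 631 to 663. The first count was between 0 and 10 and the second between 3 and 8 when 1 library was left out, and both were lowest without null library 3.

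**Figure D5:**
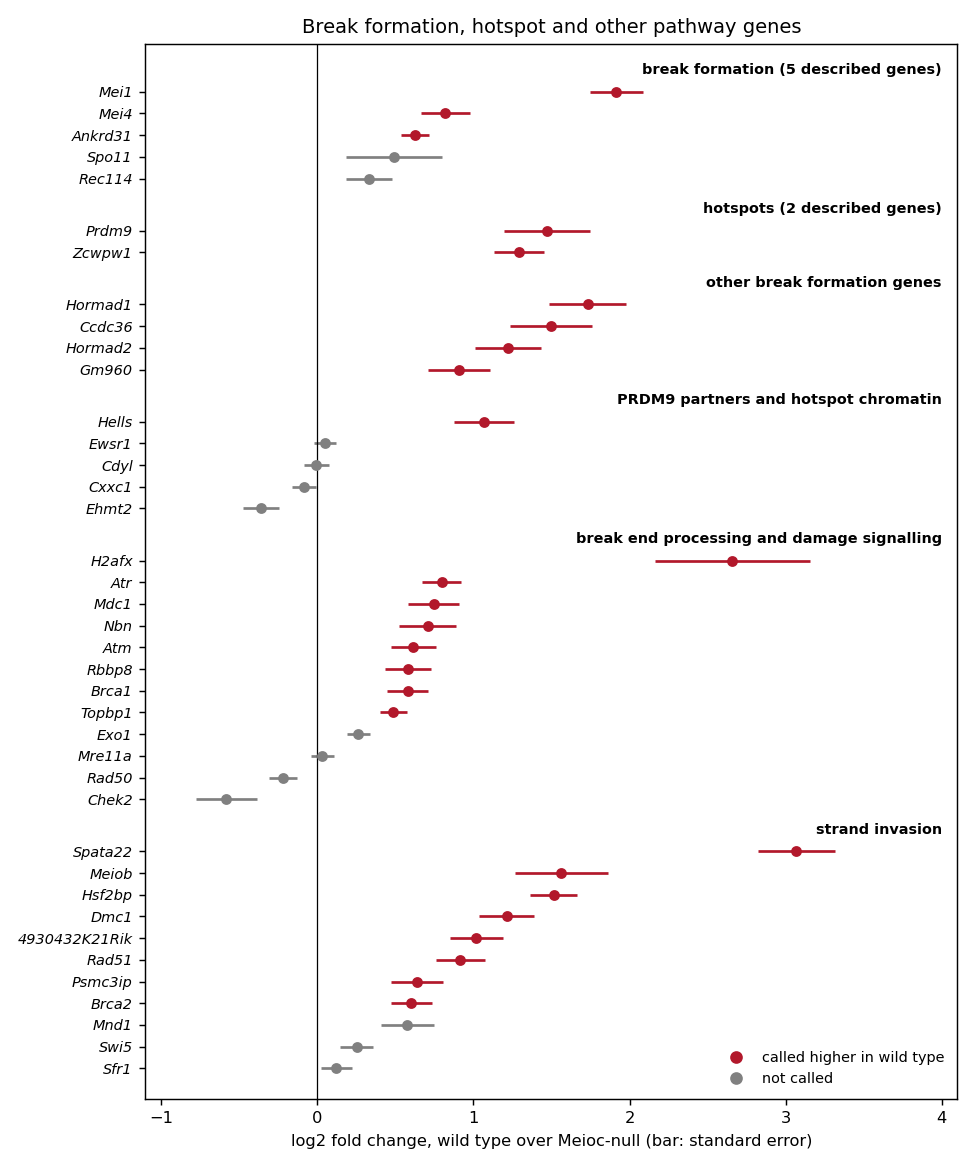
log2 fold change of wild type over Meioc-null (horizontal axis, bars are standard errors) for the 7 described genes and other tested genes of the pathway, grouped by role; red points were called higher in wild type. All 4 other break formation genes are red, whereas Hells alone is red among the PRDM9 partners.

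Genes with the most similar profile over the 7 libraries were named by the root mean square difference of log2 CPM, each gene centered on its own mean. For Mei1 they were Majin, at 0.133, and Gm10644, at 0.154. For Prdm9 they were Spdya, at 0.082, and Haus8, at 0.107. For Zcwpw1 they were Clca3a2, at 0.090, and Fam90a1b, at 0.098. Prdm9 and Zcwpw1 were each other's nearest among the 7 genes, at 0.235, and 46th and 116th among all tested genes in turn. Mei4 was nearest to Gtf2h2 and Cystm1, Ankrd31 to Tdrkh and Rpusd2, Rec114 to Jrkl and Psmd10, and Spo11 to Tcam1 and Rhox2a. The libraries of a genotype are shared by all genes compared, and the likeness was not tested.

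The closest neighbors along the chromosome were examined after the values of the 7 genes had been seen. Zcwpw1 lies head to head with Mepce, 143 bases away on the opposite strand, and Mepce had a log2 fold change of 0.053 and an adjusted p of 0.667 in edgeR. Nptn overlaps Rec114 and Pilra overlaps Zcwpw1 on the opposite strand, and counting was by strand. Their log2 fold changes were -0.15 and -0.15, and neither was called. Of 14 nearest neighbors, other than overlapping genes, edgeR called 2 higher in wild type, Rae1 beside Spo11 and Snu13 beside Mei1, and 1 lower, Myo6 before Mei4. Over all genes tested 7.77% were called higher and 3.33% lower, and with only 14 genes these counts are not set apart from those shares.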

How the data were processed

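Bulk RNA-seq of preleptotene-enriched testes (4 wild type, 3 Meioc-null) was grouped by the genotype in the labels. The authors trimmed reads with cutadapt 1.8 and ran kallisto 0.44.0 with strand and bias correction on GENCODE Basic vM15. The deposited estimated counts per protein-coding transcript are not normalized across libraries. The deposited TPM were renormalized over protein-coding transcripts by the authors, so they keep no depth.

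Both values were summed over the transcripts of each gene through GENCODE vM21 (GRCm38). Of 43139 transcripts, 119 (0.247% to 0.282% of counts) were not matched and were left out of library sizes. Rounded counts entered edgeR 4.0.16 (quasi-likelihood test, TMM, R 4.3.3), wild type over null without covariates, for genes with a TPM of 1 or more in 3 or more of 7 samples. The standard error is the log2 fold change divided by the square root of F. Ratios used a pseudocount of 0.1 TPM. Alternatives were DESeq2 1.42.0, limma 3.58.1 on log2(TPM + 1) and log2(TPM + 0.1), other scalings and filters, each library left out, and a replicate block. Scripts were tested on simulated data.

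Named genes are the 7 genes, the highest and lowest of each pathway list, Gm960, Ccdc36, Hells and Zcwpw2, and for each of the 7 the 2 genes with the most similar profile. Other genes were named after their values were seen. The 7 genes and all lists were chosen with earlier results of these data known. Between libraries of a group the mean squared difference, before TMM factors, was at least 7.95 times that of counting noise. The libraries were counted separately.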

Additional observations from a re-analysis of the deposited data

Results flagged for a closer look

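Of 34 groups of 4 libraries examined, 4 held a library whose gap to the nearest other exceeded Dixon's 95% critical value, as a share of the group's range, and chance alone flags about 1 such group in 20. The groups share the same libraries, and the Spo11 value of wild-type library 1 enters both Spo11 flags. The flags are therefore not independent, and their number was not tested against that rate. Spo11 in wild-type library 1 was 4.49 CPM, with 2.21 to 2.23 CPM in the other wild-type libraries. Zcwpw1 in wild-type library 1 was 207 CPM, below 316 to 334 CPM in the others. The log2 TPM ratio of Spo11 to Gm960 was -0.062 in wild-type library 1, above the other wild-type libraries at -1.47 to -1.68. The summed TPM of peritubular myoid markers was 334.5 in wild-type library 3, below the other wild-type libraries at 378 to 385 TPM. Groups of 3 libraries, and so all null groups, were not examined in this way.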

How the results depend on the processing

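The 7 genes stayed on their side of the threshold in edgeR with DESeq2's size factors, with no scaling beyond library size, with filterByExpr and with no filter on low values, and in DESeq2. In those fits and in limma the number called higher was 4 or 5. With log2(TPM + 1) and log2(TPM + 0.1) in limma, Ankrd31 was not called, at 0.36 and 0.37 (adjusted p 0.059 and 0.061). Scaled to Ddx4 and Dazl, 3 of the 7 genes were called, Mei4 and Ankrd31 were not, at 0.30 and 0.096, and Spo11 and Rec114 turned, at -0.010 and -0.18. The cause was not tested.

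The count over all genes, 1513 in edgeR, was 2331 in DESeq2, 2522 and 2506 in limma with pseudocounts of 1 and 0.1, and 9954 scaled to Ddx4 and Dazl. Of these calls 70.0% were higher in wild type in edgeR, 47.5% with no scaling beyond library size, 17.5% and 17.7% in limma, and 2.62% scaled to Ddx4 and Dazl, where the median of all genes was -0.53; in limma it was -0.23 and -0.25. For PRDM9 partners the calls in either direction were 2 in DESeq2, in both limma fits and with no scaling, and 5 scaled to Ddx4 and Dazl. Damage signaling gave 4 in both limma fits and 4 scaled to Ddx4 and Dazl. Other PRDM genes gave 1 in DESeq2, limma and with no scaling, and 7 scaled to Ddx4 and Dazl, and the methyltransferases 1 in DESeq2 and limma and 6 scaled to Ddx4 and Dazl.

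When 1 library was left out, the 7 genes gave 3 to 5 calls and all genes 131 (without null library 3) to 2172 (without wild-type library 1). The number called ranged from 1 to 4 for the other break formation genes, 0 to 1 for PRDM9 partners, 0 to 10 for damage signaling, 3 to 8 for strand invasion, 0 to 3 for other PRDM genes and 0 to 1 for the methyltransferases. Log2 fold changes ranged from 0.18 to 0.62 for Spo11, 1.83 to 2.04 for Mei1, 0.72 to 0.91 for Mei4, 0.22 to 0.42 for Rec114, 0.55 to 0.72 for Ankrd31, 1.28 to 1.69 for Prdm9 and 1.21 to 1.43 for Zcwpw1. The log2 ratio differences ranged from 0.0019 to 0.27 for Prdm9 to Zcwpw1, -0.86 to -0.16 for Spo11 to Gm960, 0.42 to 0.69 for Mei4 to Rec114, 0.16 to 0.46 for Ankrd31 to Rec114 and -0.10 to 0.22 for Spo11 to Rec114. The share differences, in percentage points, ranged from -30.3 to 15.6 for Spo11-201, -0.19 to 6.29 for Mei1-201, 3.05 to 11.95 for Mei4-202, -7.05 to 0.55 for Ankrd31-201 and -3.98 to -1.60 for Prdm9-206.

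The same replicate numbers occur in both genotypes, but the labels do not say that they pair the pups. Same-numbered libraries' deviations from their group means correlated at 0.006, -0.09 and -0.148. Differently numbered ones correlated at -0.094 to 0.156. With so few libraries these correlations cannot decide whether pups were paired. With the replicate number as a block, over replicates 1 to 3, 114 genes were called, among them 2 of the 7, Mei1 and Zcwpw1. Mei4, Ankrd31 and Prdm9 had 0.72, 0.61 and 1.21 (adjusted p 0.104, 0.0589 and 0.0662). In this fit with the block the calls were 1 among other break formation genes, 0 among PRDM9 partners, 0 in damage signaling and 3 in strand invasion.

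Spo11 rests on 27 to 57 counts per library, and wild-type library 1 moves its log2 fold change from 0.49 to 0.18. With 4 and 3 pups the doubled permutation p cannot pass 0.05.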
